A study of Mus musculus with 8 samples.

Results

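The genes of the renin-angiotensin system and of the endothelin system were examined in mouse hearts under pressure load. The set held 8 genes named by symbol: Agt, Ace, Agtr1a, Agtr2, Edn1, Ece1, Ednra and Ednrb. A gene was represented by the probe set that carried its symbol alone and had the highest mean over the 8 arrays. By this rule 7 of the 8 genes were found among 22180 genes, each with a single probe set, and Ednra was not analysed here. Of these 7, 6 passed a filter on low signal (a mean of at least 3.80 on the log2 scale) and were tested among 15086 genes. Agtr2 lay below it.

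The study used Affymetrix arrays on RNA of frozen hearts from male C57Bl6N mice, taken 1 week after transverse aortic constriction (TAC), an operation that narrows the aorta so that the left ventricle must pump against higher pressure. There were 4 hearts with a knockout of CITED4, a transcriptional co-regulator, and 4 floxed control hearts, whose targeted gene carries recombination sites. Every heart in both groups had undergone TAC, so the comparison was between genotypes under load and no unoperated heart was analysed here. The Cre driver, whether controls carried Cre, the age of the mice and the part of the heart taken are not stated in the labels. Hearts are numbered in the labels, but nothing states separate litters or array runs, so the p-values reflect spread among these hearts, which may be partly technical.

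In the renin-angiotensin system, angiotensinogen is cut by renin and then by angiotensin-converting enzyme to angiotensin II, which acts through type 1 and type 2 receptors. In the endothelin system, a precursor is cut by endothelin-converting enzyme to the peptide endothelin-1, which acts through type A and type B receptors. Type 1 angiotensin receptors and endothelin receptors couple to Gq proteins in cardiac muscle, and both systems are known for their part in hypertrophy, vessel tone and fibrosis.

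Cited4 itself was at 5.26, 5.15, 4.83 and 5.02 in knockout hearts 1 to 4, against 5.89, 5.76, 6.05 and 6.22 in control hearts 1 to 4 (log2 signal). The groups did not overlap, and the difference was -0.91 ± 0.12 (log2, SE; limma adjusted p = 0.277; exact two-sided permutation p = 0.0286, the smallest that 4 against 4 hearts allow). Markers of the labelled tissue were present: all 10 cardiomyocyte markers passed the filter, and their mean log2 signal lay between 11.38 and 11.68 in knockout hearts and between 11.63 and 11.73 in control hearts. Several libraries stood apart. Knockout hearts 1 and 4 had the highest mean of 10 activated fibroblast markers (9.02 and 9.05; the other 6 hearts 7.05 to 8.42) and the lowest mean of the cardiomyocyte markers (11.38 and 11.42). Knockout heart 2 had a mean of 8.07 over 7 atrial markers, where the other hearts lay between 5.86 and 6.42. Array medians ran from 4.29 to 4.33, and correlations between arrays from 0.979 to 0.988.

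Across the set, the enzyme gene Ace had higher and the receptor gene Agtr1a lower mean signals in knockout hearts, while Agt, Agtr2 and Ece1 differed by less than 0.10 on the log2 scale. Edn1 was higher and Ednrb lower on average, with overlapping values. No gene of the set passed the limma test over all genes at an adjusted p of 0.05 (0 of 6 tested), nor did any gene of the array (0.00% of 15086). At an unadjusted p under 0.05 there were 2 of the 6, Ace and Agtr1a, where 11.2% of all genes tested were. Both differences were smaller when knockout hearts 1 and 4 were left out.

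**Figure D1:**
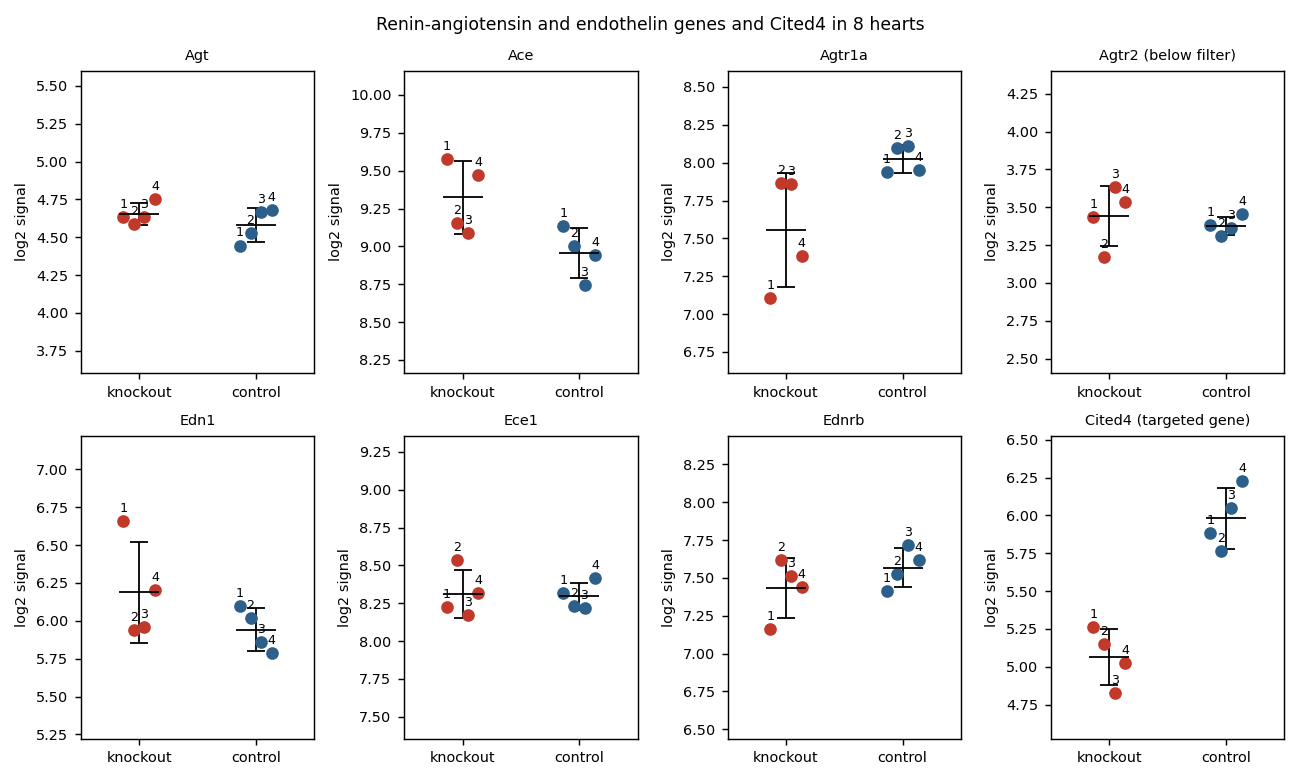
Log2 signal of the 7 measured renin-angiotensin and endothelin genes and of Cited4 in each heart, knockout left and control right, with replicate numbers at the points. Bars are mean and SD (n = 4 per group), each vertical axis spans the same log2 range and is placed on its own gene, and only Agtr1a and Cited4 have groups that do not overlap.

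Agt encodes angiotensinogen, the precursor of all angiotensins, made chiefly by the liver. Its log2 signal was 4.64, 4.59, 4.63 and 4.76 in knockout hearts, against 4.45, 4.53, 4.66 and 4.68 in control hearts. The groups overlapped. The difference was 0.07 ± 0.08 (log2, SE; 95% interval -0.11 to 0.25; limma adjusted p = 0.749).

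Ace encodes angiotensin-converting enzyme, a peptidase of the endothelial surface that makes angiotensin II and degrades bradykinin. Its log2 signal was 9.58, 9.15, 9.09 and 9.47 in knockout hearts, against 9.13, 9.003, 8.74 and 8.94 in control hearts. Knockout hearts 1 and 4 were highest, and knockout heart 3 lay below control heart 1, so the groups overlapped. The means were 9.32 ± 0.24 in knockout hearts and 8.96 ± 0.16 in control hearts (SD, n = 4 each). On the log2 scale Ace differed by 0.37 ± 0.13 (SE; 95% interval 0.08 to 0.65), or 1.29-fold. Its limma p was 0.0169 before and 0.421 after adjustment over all genes, and the exact two-sided permutation test gave p = 0.0571. Without both knockout hearts 1 and 4, which were left out together only once the values were known, the difference was 0.16.

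Agtr1a encodes the main type 1 angiotensin II receptor of rodents, through which angiotensin II raises vessel tone and promotes growth of cardiac cells. Its log2 signal was 7.10, 7.87, 7.86 and 7.38 in knockout hearts, against 7.94, 8.10, 8.11 and 7.95 in control hearts. Every knockout heart lay below every control heart, hearts 1 and 4 by the widest margin and hearts 2 and 3 just below the lowest control. Among all genes tested 2.90% were lower without overlap. The means were 7.55 ± 0.38 in knockout hearts and 8.03 ± 0.09 in control hearts (SD, n = 4 each). The difference was -0.47 ± 0.16 (log2, SE; 95% interval -0.83 to -0.11), leaving 72.1% of the control signal. Limma gave p = 0.0153 before and p = 0.421 after adjustment over all genes, and the exact permutation p (two-sided) was 0.0286, the smallest possible. The difference was -0.32 without knockout heart 1 and -0.16 without both knockout hearts 1 and 4. In bulk tissue, fewer cells of a type and less RNA per cell cannot be told apart.

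The other receptors of angiotensin peptides had low signals. Agtr2, which encodes the type 2 receptor that opposes many type 1 effects, was at 3.44, 3.17, 3.63 and 3.54 in knockout hearts, against 3.39, 3.31, 3.36 and 3.45 in control hearts. Its groups overlapped, and the fit without the filter gave 0.07 ± 0.10 (log2, SE; 95% interval -0.17 to 0.30). Agtr1b, the second type 1 receptor gene of rodents, and Mas1, the receptor gene for angiotensin-(1-7), also lay below the filter, with highest values of 3.47 and 3.75 in any heart. Whether probes of the Agtr1a set also bind Agtr1b transcripts is not stated in the labels.

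Edn1 encodes preproendothelin-1, made by endothelial cells and, under stress, by cardiac myocytes. Its log2 signal was 6.66, 5.94, 5.96 and 6.21 in knockout hearts, against 6.10, 6.02, 5.86 and 5.79 in control hearts. Knockout hearts 1 and 4 were above all controls, and hearts 2 and 3 lay within the control range. The means were 6.19 ± 0.33 in knockout hearts and 5.94 ± 0.14 in control hearts (SD, n = 4 each), a difference of 0.25 ± 0.15 (log2, SE; 95% interval -0.09 to 0.59; limma adjusted p = 0.545). It was 0.0066 without both knockout hearts 1 and 4, and 0.09 without knockout heart 1.

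Ece1 encodes endothelin-converting enzyme 1, which releases endothelin-1 from its precursor. Its log2 signal was 8.23, 8.53, 8.17 and 8.32 in knockout hearts, against 8.32, 8.23, 8.22 and 8.42 in control hearts. The highest value was that of knockout heart 2, the library with high atrial markers, and otherwise the groups intermingled. The difference was 0.02 ± 0.09 (log2, SE; 95% interval -0.19 to 0.23; limma adjusted p = 0.958), and it was -0.06 without knockout heart 2.

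Ednrb encodes the type B endothelin receptor, which on endothelium releases nitric oxide and clears endothelin-1. Its log2 signal was 7.16, 7.62, 7.51 and 7.44 in knockout hearts, against 7.41, 7.53, 7.71 and 7.62 in control hearts. Knockout heart 1 was the lowest of all hearts and the other 3 knockout hearts lay within the control range. The difference was -0.13 ± 0.11 (log2, SE; 95% interval -0.38 to 0.11; limma adjusted p = 0.649). Without knockout heart 1 it was -0.04, and without both knockout hearts 1 and 4 it was -0.0012.

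Ace, Edn1, Agtr1a and Ednrb had correlated signals over the 8 hearts. Pearson correlations over the 8 hearts were computed for all 21 pairs of the 7 genes, a family chosen after the data were seen, and 6 pairs passed an exact two-sided permutation test adjusted over the 21. These were the 6 pairs among those 4 genes. After removal of each genotype's mean, a test over the 576 orders of hearts within genotypes left 0 of the 21 pairs with an adjusted p under 0.05. The hearts share the same normalization, and no pair passed on ranks after adjustment (0 of 21; 3 at an unadjusted p under 0.05).

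Ace and Agtr1a ran opposite to each other (r = -0.94 with an exact permutation p of 0.000918, or 0.0135 adjusted; rho = -0.90 with an exact permutation p of 0.00456, or 0.0760 adjusted). Without knockout heart 1 and control heart 3, the hearts farthest from the median of Ace, r was -0.93, and within genotypes it was -0.88 (exact permutation p = 0.0295, adjusted p = 0.103). The ligand gene Edn1 and the receptor gene Ednrb were also inversely related (r = -0.95 with an exact permutation p of 0.00129, or 0.0135 adjusted; rho = -0.88 with an exact permutation p of 0.00724, or 0.0760 adjusted). For this pair r was -0.82 without knockout hearts 1 and 4, the farthest from the median of Edn1 (exact permutation test, adjusted p = 0.372). Within genotypes r was -0.93 (exact permutation p = 0.00521, adjusted p = 0.0729). Ace and Edn1 went the same way (r = 0.87 with an exact permutation p of 0.00208, or 0.0146 adjusted; rho = 0.81 with an exact permutation p of 0.0218, or 0.152 adjusted). Here r was 0.82 without knockout heart 1 and control heart 3, and 0.85 within genotypes (exact permutation p = 0.0174, adjusted p = 0.0911).

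The other 3 pairs fell further when the hearts farthest from the median of the first-named gene were left out. These hearts differed between pairs. Ace and Ednrb had r = -0.86 with an exact permutation p of 0.00422, or 0.0221 adjusted, and rho = -0.71 with an exact permutation p of 0.0576, or 0.242 adjusted (without knockout heart 1 and control heart 3, r was -0.56). Agtr1a and Edn1 had r = -0.88 with an exact permutation p of 0.00779, or 0.0327 adjusted, and rho = -0.69 with an exact permutation p of 0.0694, or 0.243 adjusted. Without knockout hearts 1 and 4 this relation was -0.07, so it rests on those hearts. Agtr1a and Ednrb had r = 0.83 with an exact permutation p of 0.0119, or 0.0417 adjusted, and rho = 0.71 with an exact permutation p of 0.0576, or 0.242 adjusted (without the same hearts, r was 0.34). Within genotypes these 3 had r of -0.89, -0.87 and 0.82 (exact permutation p = 0.00694, 0.0295 and 0.0156; adjusted p = 0.0729, 0.103 and 0.0911). None of the 6 relations kept an adjusted p under 0.05 without knockout heart 1 (0.154 to 0.542) or without knockout heart 4 (0.0514 to 0.214). Without both knockout hearts 1 and 4, r was -0.76 for Ace and Agtr1a, 0.60 for Ace and Edn1 and -0.72 for Ace and Ednrb. For these the exact permutation test gave adjusted p of 0.372, 0.594 and 0.408.

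**Figure D2:**
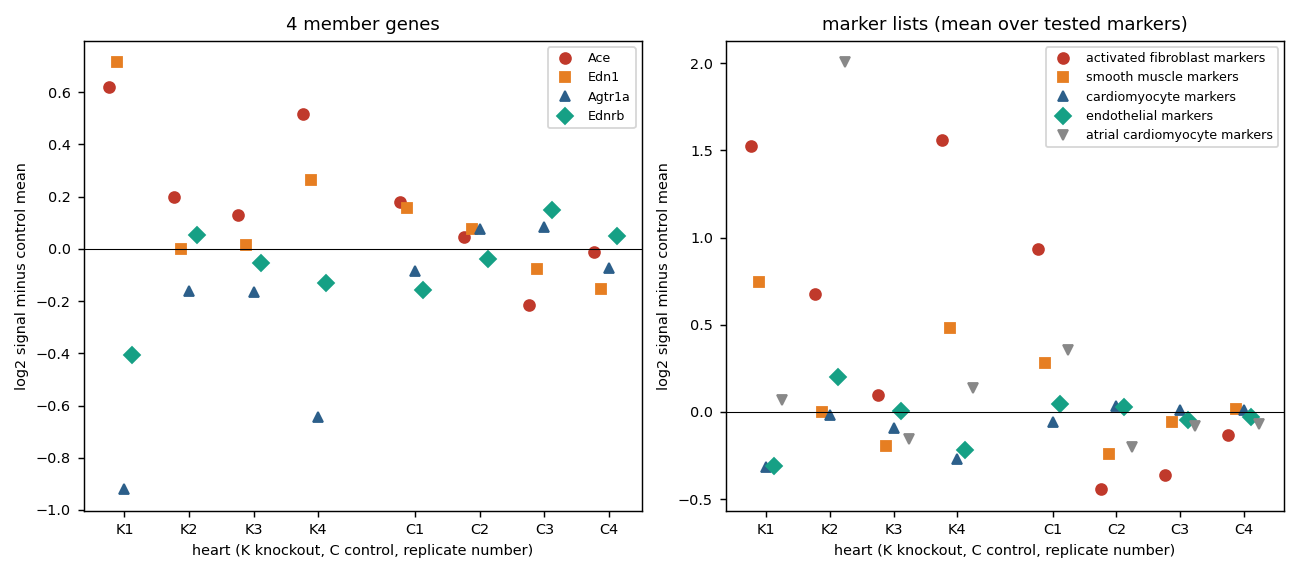
Log2 signal minus the control mean in each heart for Ace, Edn1, Agtr1a and Ednrb (left) and for the mean of 5 marker lists (right). Knockout hearts 1 and 4 have the highest Ace, Edn1, activated fibroblast and smooth muscle values and the lowest Agtr1a, cardiomyocyte and endothelial values, and knockout heart 2 stands apart in atrial markers.

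Marker lists of several cell types varied in the same hearts as Ace, Edn1 and Agtr1a, while other lists did not. For Ednrb only knockout heart 1 lay outside the control range. The mean log2 signal of 10 endothelial markers was 7.99, 8.50, 8.31 and 8.08 in knockout hearts and lay between 8.25 and 8.34 in control hearts, lowest in knockout hearts 1 and 4. The 7 smooth muscle markers had means of 7.55, 6.80, 6.61 and 7.29 in knockout hearts and 6.57 to 7.08 in control hearts, highest in the same hearts. Of the activated fibroblast markers 10 of 10 were higher in knockout hearts, with means of 7.59 to 9.05 in knockout hearts and 7.05 to 8.42 in control hearts. The 10 general fibroblast markers were split, 5 higher and 5 lower. Their means were 8.16, 8.42, 8.16 and 8.22 in knockout hearts and 8.07 to 8.31 in control hearts. The macrophage markers had means of 8.16, 7.90, 8.19 and 7.87 in knockout hearts and 7.79 to 8.01 in control hearts. Of the cardiomyocyte markers 9 of 10 were lower, of the endothelial markers 7 of 10 and of the smooth muscle markers 4 of 7. The endothelial and smooth muscle counts turned on single hearts: 3 of 10 endothelial markers were lower without knockout heart 1, 10 of 10 without knockout heart 2 and 2 of 10 without both knockout hearts 1 and 4, and 2 of 7 smooth muscle markers were lower without knockout heart 2 or without knockout heart 3. The part of these cell types in the differences of Ace, Agtr1a, Edn1 and Ednrb was not tested.

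The start regions of the 3 correlated genes with an entry in the promoter table are shown because their signals were correlated. Each runs from 250 bases before to 50 bases after the annotated start, 5′ to 3′ on the gene's strand (RefSeq, build GRCm38.p6; 7 of the 8 symbols matched). For Ace the table holds 2 annotated starts, and the first is shown; the window of the second (chr11:105974939-105975238) held none of the motifs named next. Capitals mark any of 6 short motifs on either strand: the TATA box letters TATAAA, the GATA factor letters AGATAA, the TEAD factor letters CATTCC, the core of hypoxia-inducible factor sites ACGTG, the GC box letters GGGCGG and the AP-1 letters TGACTCA.
Ace, chr11:105967698-105967997, plus strand: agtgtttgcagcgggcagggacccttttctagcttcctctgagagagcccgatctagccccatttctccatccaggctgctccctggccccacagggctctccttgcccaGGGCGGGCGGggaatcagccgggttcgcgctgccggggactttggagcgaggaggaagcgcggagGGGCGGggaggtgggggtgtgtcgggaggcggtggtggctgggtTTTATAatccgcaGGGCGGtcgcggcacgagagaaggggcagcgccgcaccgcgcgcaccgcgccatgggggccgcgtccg
Edn1, chr13:42301226-42301525, plus strand: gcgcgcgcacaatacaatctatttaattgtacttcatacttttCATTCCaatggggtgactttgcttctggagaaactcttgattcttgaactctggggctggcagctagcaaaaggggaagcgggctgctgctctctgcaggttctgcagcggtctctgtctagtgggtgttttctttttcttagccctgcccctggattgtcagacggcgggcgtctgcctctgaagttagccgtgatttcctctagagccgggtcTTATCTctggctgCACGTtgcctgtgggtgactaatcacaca
Ednrb, chr14:103843652-103843951, minus strand: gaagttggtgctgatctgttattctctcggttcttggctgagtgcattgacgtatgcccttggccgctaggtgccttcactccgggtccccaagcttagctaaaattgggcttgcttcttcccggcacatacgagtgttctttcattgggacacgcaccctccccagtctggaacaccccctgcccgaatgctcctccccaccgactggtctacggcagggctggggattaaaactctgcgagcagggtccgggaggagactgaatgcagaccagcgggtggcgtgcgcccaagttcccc
The Ace window shown held GGGCGG at 4 places, of which 2 overlapped, and TATAAA on the opposite strand at -31 to -26 relative to the start. The Edn1 window held CATTCC at -207 to -202, AGATAA on the opposite strand at 9 to 14 and ACGTG on the opposite strand at 22 to 26. In the Ednrb window none of these letters were found. Of 32851 RefSeq windows of this length, 13.6% held TATAAA, 11.2% AGATAA, 14.7% CATTCC, 19.6% ACGTG, 35.7% GGGCGG and 5.2% TGACTCA. No motif was shared by the Ace and Edn1 windows shown.

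Other genes of the renin-angiotensin system showed both directions. Of 25 genes listed, 21 had a probe set and 15 were tested; 9 were higher and 6 lower in knockout hearts, with a median difference of 0.06 (all genes tested 0.0038). None passed over all genes (0 of 15), and an unadjusted p under 0.05 was found for 0 higher and 3 lower, where 5.61% of all genes were lower. Without control heart 4 the 3 lower became 1, without control heart 1 there were 2 higher and 2 lower, and without both knockout hearts 1 and 4 there were 1 higher and 0 lower. The median was 0.0055 without control heart 3, 0.01 without knockout heart 1 and -0.03 (7 higher, 8 lower) without both knockout hearts 1 and 4. The 3 genes were Nr3c2, the mineralocorticoid receptor gene, Mme, which encodes neprilysin, a peptidase that degrades angiotensins, endothelins and natriuretic peptides, and Enpep, which encodes the aminopeptidase that makes angiotensin III from angiotensin II.

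Nr3c2 was at 5.31, 5.80, 5.74 and 5.60 in knockout hearts, against 5.82, 5.85, 6.07 and 6.10 in control hearts. Its groups did not overlap (difference -0.35 ± 0.12, log2, SE; limma adjusted p = 0.421), and the mean of its 2 probe sets gave -0.19. Mme was at 4.78, 5.51, 5.26 and 5.23 in knockout hearts, against 5.60, 5.64, 5.41 and 5.73 in control hearts, a difference of -0.40 ± 0.14 (log2, SE; limma adjusted p = 0.421). Only knockout heart 2 reached the control range. Enpep differed by -0.27 ± 0.10 (log2, SE) with overlap. Among genes of angiotensin breakdown and receptor handling, Prcp, the prolylcarboxypeptidase gene, differed by 0.27 ± 0.13, Ctsa, the cathepsin A gene, by 0.15 ± 0.09 and Agtrap, whose product promotes internalisation of the type 1 receptor, by 0.15 ± 0.10 (log2, SE). Atp6ap2, the (pro)renin receptor gene, differed by 0.06 ± 0.08. Cma1, the mast cell chymase gene, lay below the filter at 3.48 or less in every heart. Of the 7 mast cell markers 5 lay below it.

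Other endothelin genes differed little, and several had low signals. All 6 had a probe set, 5 were tested, and 1 was higher and 4 lower, with a median of -0.04. None passed over all genes (0 of 5), and 0 had an unadjusted p under 0.05, where 11.2% of all genes did. The ligand genes Edn2 and Edn3 differed by -0.15 ± 0.09 and -0.06 ± 0.19, the converting enzyme gene Ece2 by 0.07 ± 0.12, and the related peptidase genes Mmel1 and Ecel1 by -0.04 ± 0.10 and -0.02 ± 0.10 (log2, SE). Edn2, Ecel1 and Mmel1 had low means over the 8 hearts (4.26, 4.06 and 3.88, where the filter lay at 3.80). Low signal limits what their small differences show. With the stricter 60th percentile filter, 2 genes of the list were tested. The list's median was positive without knockout heart 2 (0.0062), without control heart 2 (0.02) and without control heart 3 (0.00085).

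Genes that carry signals from Gq and G12 proteins, to which these receptors couple, were balanced. Of 36 genes 31 were tested, 14 higher and 17 lower in knockout hearts, with a median of -0.03; none passed over all genes (0 of 31), and 2 higher and 1 lower had an unadjusted p under 0.05, where 5.64% of all genes were higher and 5.61% lower. That number was 0 higher and 0 lower without knockout heart 1 or without both knockout hearts 1 and 4. It was 0 higher and 1 lower without knockout heart 4, control heart 2 or control heart 3. Without control heart 4 it was 1 higher and 1 lower, and without knockout heart 2 it was 2 higher and 3 lower. It was 3 higher and 1 lower without knockout heart 3, and 3 higher and 0 lower without control heart 1. Prkcd, which encodes protein kinase C delta, was at 7.18, 6.50, 6.19 and 6.94 in knockout hearts, against 6.55, 5.98, 5.79 and 6.31 in control hearts (difference 0.54 ± 0.22, log2, SE; limma adjusted p = 0.431). Knockout heart 1 was highest and the groups overlapped. Arrb2, which encodes the beta-arrestin that uncouples and scaffolds receptors, differed by 0.30 ± 0.13, and Prkd1, which encodes protein kinase D1, by -0.19 ± 0.07 without overlap. Itpr2, the inositol trisphosphate receptor gene of cardiac myocytes, differed by 0.15 ± 0.08 without overlap, Arhgef12, a guanine nucleotide exchange factor gene, by -0.17 ± 0.08, Prkce, the protein kinase C epsilon gene, by -0.25 ± 0.14, and Rgs2, which encodes an inhibitor of Gq signalling, by -0.33 ± 0.20. For Rgs2 the mean of its 2 probe sets gave -0.16. The median of the list turned positive without knockout heart 3 (0.03) and without knockout heart 4 (0.02).

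Genes known to respond to angiotensin II or endothelin-1 in heart cells were higher on average. This list, like the other lists, was written with earlier results of these data known, so its counts are a description and not a test. Of 24 genes 21 were tested, and 20 were higher and 1 lower in knockout hearts, with a median difference of 0.35 against 0.0038 for all genes tested. None passed over all genes (0 of 21); 8 higher and 0 lower had an unadjusted p under 0.05, where 5.64% of all genes were higher, and 4 were higher without overlap, where 2.33% of all genes were. Many other stimuli induce the same genes, and 2 of them, Postn and Nppa, also stand in the marker lists above. The overlap in pattern was wider than these shared names. Fn1, Col1a1, Col3a1, Timp1 and Ccn2 of this list were highest in knockout hearts 1 and 4, while Rcan1 and Adamts1 were highest in knockout heart 3. The activated fibroblast markers were also highest in knockout hearts 1 and 4, and their part in this shift was not tested.

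Hbegf, which encodes an EGF receptor ligand released in response to Gq-coupled receptors, was at 8.71, 7.86, 8.52 and 8.65 in knockout hearts, against 7.75, 7.47, 7.57 and 7.24 in control hearts. Every knockout heart was above every control heart, including hearts 2 and 3, and the difference was 0.92 ± 0.18 (log2, SE; limma adjusted p = 0.421). Ccn2, a matricellular gene of fibrosis, was at 10.32, 9.30, 9.44 and 10.44 in knockout hearts, against 9.29, 8.48, 8.57 and 9.11 in control hearts. Its groups did not overlap, though knockout heart 2 and control heart 1 were nearly level, and the difference was 1.01 ± 0.28 (log2, SE; limma adjusted p = 0.421); the mean of its 2 probe sets gave 0.43. Acta1, the skeletal alpha-actin gene of the hypertrophied heart, differed by 0.49 ± 0.15 without overlap. The matrix genes Timp1, Postn and Col3a1 differed by 0.71 ± 0.27, 0.56 ± 0.21 and 0.62 ± 0.26 with overlap. Tgfb1, a ligand gene of fibrosis, differed by 0.18 ± 0.09 and Rcan1, a target and inhibitor of calcineurin, by 0.17 ± 0.13 (log2, SE). Without both knockout hearts 1 and 4 the list had 19 higher and 2 lower, a median of 0.24 and 1 gene at an unadjusted p under 0.05. Leaving out single hearts, that number was 4 without knockout heart 1, 3 without knockout heart 4, 3 without control heart 2, 4 without control heart 3 and 13 without control heart 1.

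**Figure D3:**
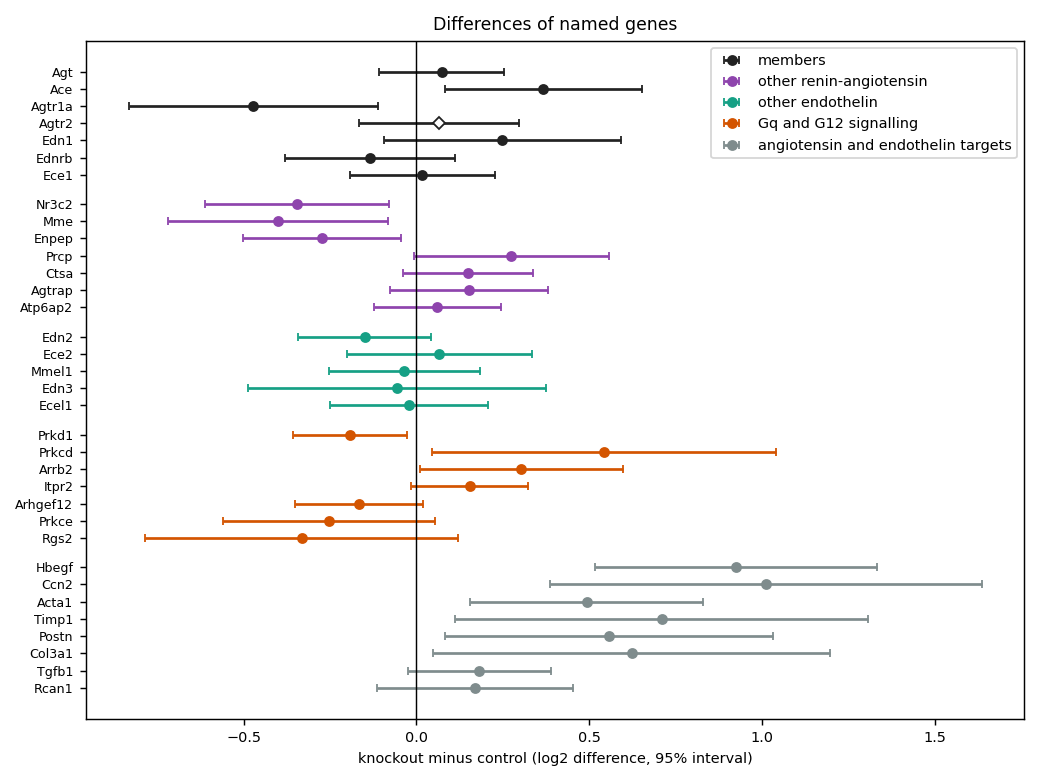
Knockout minus control log2 difference with 95% interval from limma for the 7 genes of the set (open diamond: Agtr2, below the filter) and for named genes of 4 other lists. Among the 7, only the intervals of Ace (0.08 to 0.65) and Agtr1a (-0.83 to -0.11) leave out 0, and none passed after adjustment.

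**Figure D4:**
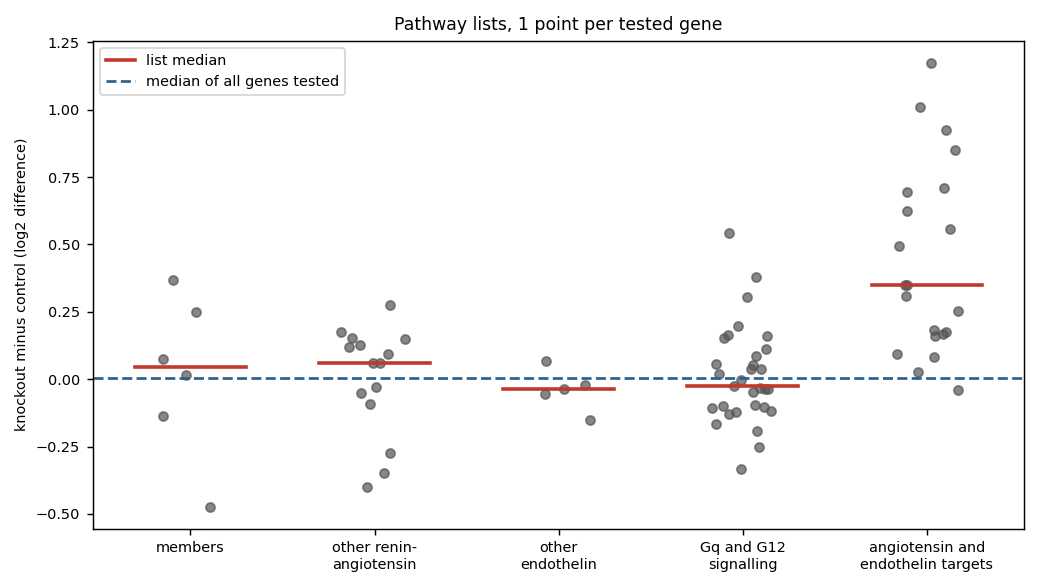
Knockout minus control log2 difference of each tested gene in the set and in 4 related lists, with the list median and the median of all genes tested. The target list has a median of 0.35, and the other medians lie between -0.04 and 0.06.

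The genes whose signals were most like each member were found by Pearson's r over the 8 hearts, as a description. With 15085 genes compared over 8 hearts, high values of r are found for any gene. Agtr1a was most like Abraxas1 (r = 0.998), Atp2a2 (0.992), which encodes the calcium pump of the sarcoplasmic reticulum, and Asb15 (0.992). Ace was most like Gins4 (0.994), Adgra2 (0.991), an adhesion receptor gene of endothelium, and Gpx7 (0.988). Edn1 was most like Izumo4 (0.981), Msmo1 (0.980), an enzyme gene of cholesterol synthesis, and Tent5b (0.978). Ednrb was most like Tcim (0.974), Herpud1 (0.969), a gene of the endoplasmic reticulum stress response, and Hnmt (0.968), which encodes histamine methyltransferase. Ece1 was most like Pkhd1l1 (0.979), Gm21057 (0.969) and Sema3a (0.946), and Agt most like Rtn4r (0.955), Elovl6 (0.951) and Rln3 (0.950). Agtr2, with low signal throughout, was most like 1700028I16Rik (0.969), Slc39a2 (0.935) and Rasd1 (0.935).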

How the data were processed

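Biotin-labelled total RNA of each heart was hybridised to an Affymetrix array, per the labels' protocols. The deposited table gives log2 signals for 41345 probe sets on 8 arrays, made by the authors with RMA (background correction, quantile normalization and probe summary), which is named along with limma, with no version of either, per the submitters' processing notes. Quantile normalization hides a shift of all genes together. The number of arrays limits the precision. A single gene symbol was annotated for 23521 probe sets, more than 1 for 1814, and 16010 had no symbol; 23328 took the RefSeq symbol (GRCm38.p6) by Entrez identifier. Array build and hybridisation batches are not stated, so no batch was tested.

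Groups followed the labels, 4 knockout and 4 control hearts. Genes with a mean at or above the 40th percentile of probe set means were tested with limma 3.58.1 in R 4.3.3 (lmFit and eBayes, knockout minus control), with Benjamini-Hochberg adjustment over 15086 genes and a threshold of 0.05; the steps were tested on simulated data. Errors of differences are limma's moderated standard errors. Exact permutation tests ran over the 70 assignments of hearts or, for a correlation, over all orders of 8 hearts (within genotypes, the 576 orders that keep each heart in its genotype), and correlation tests were adjusted over 21 pairs. The members and lists were chosen with earlier results of these data known. Named genes were the members, Cited4, up to 6 tested genes per pathway list with the smallest p, a fixed panel of 16 pathway genes (some of which are not reported here), and the 3 genes most like each member.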

Additional observations from a re-analysis of the deposited data

Results flagged for a closer look

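In groups of 4 hearts, a heart was marked where its gap to the nearest other took up more of the group's range than the 95% critical value of Dixon's test allows, which chance gives in about 1 of 20 groups. Of 118 groups of named genes 5 were marked, and no gene of the set was among them. Control heart 1 was high for Agtrap (6.24, the other controls 5.95 to 5.96) and for Tgfb1 (8.11, the others 7.84 to 7.88). Control heart 2 was high for Edn2 (4.48, the others 4.28 to 4.30). Knockout heart 1 was high for Arrb2 (6.88, the others 6.49 to 6.52). Control heart 3 stood apart for Slc39a2 (4.38). No cause was tested.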

How the results depend on the processing

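Each comparison was repeated under 16 alternatives: all genes kept, the stricter 60th percentile filter, quantile normalization done again, arrays brought to 1 median, averaged probe sets, a robust variance trend, weighted arrays, a replicate block, and each heart left out in turn. A further one, without both knockout hearts 1 and 4, was added once the data had been seen. In all 17 the number of genes called was 0 over all genes, 0 in the set and 0 in the other pathway lists, and Cited4 stayed lower (-0.99 to -0.83) with no adjusted p under 0.05. Unadjusted p-values under 0.05 numbered 1697 over all genes in the reported fit, 617 without both knockout hearts 1 and 4, and 987 to 2390 leaving out single hearts. For the other pathway lists together that number was 14 in the reported fit, 2 without both knockout hearts 1 and 4, and 7 to 20 leaving out single hearts. In the set it was 2, against 1 without control heart 3 and 0 without both knockout hearts 1 and 4. Ace ran from 0.16 to 0.45, Agtr1a from -0.58 to -0.16, Edn1 from 0.0066 to 0.33 and Ednrb from -0.20 to -0.0012, and none changed direction. Ece1 changed direction without knockout heart 2 (-0.057), control heart 2 (-0.0039) or control heart 3 (-0.0083), within a range of -0.057 to 0.063 leaving out single hearts. The cause was not tested. The 6 relations kept their sign in all alternatives run. With the replicate block no call changed and 2177 genes had an unadjusted p under 0.05. In that fit the limma p was 0.00396 for Ace and 0.00426 for Agtr1a before adjustment, and 0.170 for each after it. Same-numbered hearts had correlated deviations of -0.03 to 0.36, and 4 of 8 hearts correlated best with their own number. These values do not settle whether the numbers are pairs. Nothing in the labels calls them pairs, so the reported fit has no block.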
